A study of Mus musculus with 4 samples.

Results

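Ribosome biogenesis and Myc growth genes are 33 genes, taken by name, that build ribosomes in the nucleolus or drive and feed cell growth. All 33 were found among the 32285 features of the 4 libraries, and all 33 passed the filter on low counts in each comparison. The libraries held CD8 T cells of C57BL/6 mice whose tumours had been implanted 14 days earlier. The cells came from the lymph nodes that drain the tumour and were sorted for CD44 and CD90.1. C6M9 is labelled low affinity GP33 and M9 high affinity GP33, GP33 being a peptide of a viral glycoprotein, and each group had 2 libraries. Cells of 35 mice (C6M9) and 10 mice (M9) entered the sorts. The labels call the libraries of a group biological duplicates without saying how mice were divided between them. In comparisons of the groups SEs and p-values measure the spread between libraries, which may be partly technical. In comparisons of states, fitted with library as a term, they measure how state differences vary from library to library. The labels name neither the tumour line nor the origin of the CD90.1+ cells, and give no treatment or age.

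A cell that starts to grow must first make more ribosomes. RNA polymerase I transcribes the ribosomal RNA precursor in the nucleolus, small nucleolar ribonucleoproteins (snoRNPs) guide its chemical modification, and assembly factors trim and fold it into the small and large subunits. Myc, a transcription factor, activates many genes of this programme and of polyamine synthesis. In T cells Myc is known to be induced when the T cell receptor (TCR) is engaged, and growth precedes division.

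Myc binds the hexamer CACGTG, known as the canonical E-box, and the promoters of the 33 genes that hold it are shown because Myc is among the 33. RefSeq promoter windows on GRCm38.p6, from 250 bases before to 50 after the gene start, were at hand for 27 of the 33 genes (not Myc, Srm, Npm1, Fbl, Rrs1 and Bop1). The hexamer reads the same on both strands and was present in 5 of the 27 windows (18.5%), against 2187 of the 27025 windows in the table (8.09%). Ran lies at chr5:129019906-129020205 (plus strand), Wdr43 at chr17:71615965-71616264 (plus), Pes1 at chr11:3963725-3964024 (plus), Utp20 at chr10:88826765-88827064 (minus) and Tsr1 at chr11:74897830-74898129 (plus). Each is written 5′ to 3′ on the strand of its gene, with the hexamer in capitals.
Ran: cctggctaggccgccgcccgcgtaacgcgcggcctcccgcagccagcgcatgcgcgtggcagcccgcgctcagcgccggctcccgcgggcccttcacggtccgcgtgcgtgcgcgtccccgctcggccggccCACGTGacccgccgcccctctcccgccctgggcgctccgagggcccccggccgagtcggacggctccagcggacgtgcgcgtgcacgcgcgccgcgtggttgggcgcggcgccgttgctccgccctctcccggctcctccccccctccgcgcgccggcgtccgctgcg
Wdr43: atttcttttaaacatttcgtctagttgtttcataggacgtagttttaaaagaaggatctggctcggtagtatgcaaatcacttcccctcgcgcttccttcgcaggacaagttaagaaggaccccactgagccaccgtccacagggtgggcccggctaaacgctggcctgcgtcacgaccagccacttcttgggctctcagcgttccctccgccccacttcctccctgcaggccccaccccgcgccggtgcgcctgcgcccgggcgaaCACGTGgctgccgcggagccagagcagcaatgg
Pes1: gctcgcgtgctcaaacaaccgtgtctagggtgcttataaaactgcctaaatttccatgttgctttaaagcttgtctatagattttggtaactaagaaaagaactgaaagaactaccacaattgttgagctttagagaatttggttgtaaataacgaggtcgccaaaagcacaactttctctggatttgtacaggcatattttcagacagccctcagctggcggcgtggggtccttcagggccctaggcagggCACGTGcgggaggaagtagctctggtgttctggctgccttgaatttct
Utp20: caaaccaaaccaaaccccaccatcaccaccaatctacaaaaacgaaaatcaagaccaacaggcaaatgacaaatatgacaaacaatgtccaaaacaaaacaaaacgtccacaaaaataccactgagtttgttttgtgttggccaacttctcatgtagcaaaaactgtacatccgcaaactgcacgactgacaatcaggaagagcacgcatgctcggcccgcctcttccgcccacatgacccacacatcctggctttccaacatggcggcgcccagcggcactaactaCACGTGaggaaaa
Tsr1: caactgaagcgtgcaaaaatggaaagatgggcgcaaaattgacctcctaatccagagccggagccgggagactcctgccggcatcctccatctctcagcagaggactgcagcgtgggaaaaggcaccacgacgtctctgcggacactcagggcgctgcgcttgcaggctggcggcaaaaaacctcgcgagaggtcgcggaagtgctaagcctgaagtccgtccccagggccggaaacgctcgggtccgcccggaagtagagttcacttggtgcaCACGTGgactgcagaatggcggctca
In Ran the hexamer starts 118 bases before the gene start, and in the other 4 it lies among the 50 bases after it. A match is a description of letters, not a binding site, and these libraries hold no binding data.

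The deposited matrices held 11113 cell barcodes, with 73379913 and 65721043 unique molecular identifiers (UMIs, each counting 1 captured RNA molecule) in C6M9 replicates 1 and 2, and 79174627 and 33680632 in M9 replicates 1 and 2. After filters 9795 T cells remained, 2857 and 1676 in C6M9 and 4084 and 1178 in M9. Their median depth was 13839 and 20365 UMIs per cell in C6M9 and 13160.5 and 19922 in M9, so replicate 2 was deeper in both groups. All 8 T cell genes checked, Cd8a among them, were present in each library. The 4 CD4 and regulatory T cell genes summed to 9.96 to 12.3 CPM (counts scaled to a common library total), the 12 myeloid genes to 14.2 to 20.1, the 6 melanoma and stroma genes to 0.663 to 1.12 and the 5 red cell and platelet genes to at most 0.0568. The 10 B cell genes summed to 286 to 369 CPM and the 6 NK and innate lymphoid genes, some of which CD8 T cells also express, to 133 to 233.

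Each cell was placed in 1 of 4 states by its own UMIs. Engaged cells had at least 2 UMIs of Tnfrsf4, Tnfrsf9 and Egr3 together, genes induced by TCR signals, and cycling cells had at least 3 UMIs of Mki67, Top2a, Rrm2, Ccna2, Birc5 and Cdk1. Engaged cells that did not cycle were 5.29 and 7.82% of T cells in C6M9, against 20.3 and 15.5% in M9. Cells that were both engaged and cycling were 8.82 and 12.4% in C6M9 and 10.2 and 13.3% in M9, and cycling cells without engagement 23.1 and 23.2% in C6M9 and 13.1 and 17.9% in M9. The other cells, neither engaged nor cycling, were 62.8 and 56.6% in C6M9 and 56.4 and 53.2% in M9. A cell with more UMIs passes such a rule more easily. Engaged cells had medians of 17309 and 24557 UMIs in C6M9 and 14874 and 22764 in M9, whereas other cells had 10743 and 14945 in C6M9 and 10653 and 16104 in M9. None of the 33 genes enters a state rule.

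The first comparison set engaged against other cells within each library. All 33 genes were higher in engaged cells (edgeR quasi-likelihood test, Benjamini-Hochberg adjusted p under 0.05), where 20.3% of the 11954 genes tested were higher and 17.4% lower, 37.7% in all. Their median log2 difference was 1.10, against -0.0048 for all genes. For each of the 33, the lowest of the 4 engaged sums lay above the highest of the 4 other sums, as for 11.7% of all genes, while 8.75% lay below. Together the 33 genes took 67.0 and 63.3 of every 10000 UMIs in engaged cells of C6M9 and 57.7 and 57.1 in those of M9. In other cells they took 31.8 and 30.8 in C6M9 and 30.5 and 28.1 in M9.

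**Figure D1:**
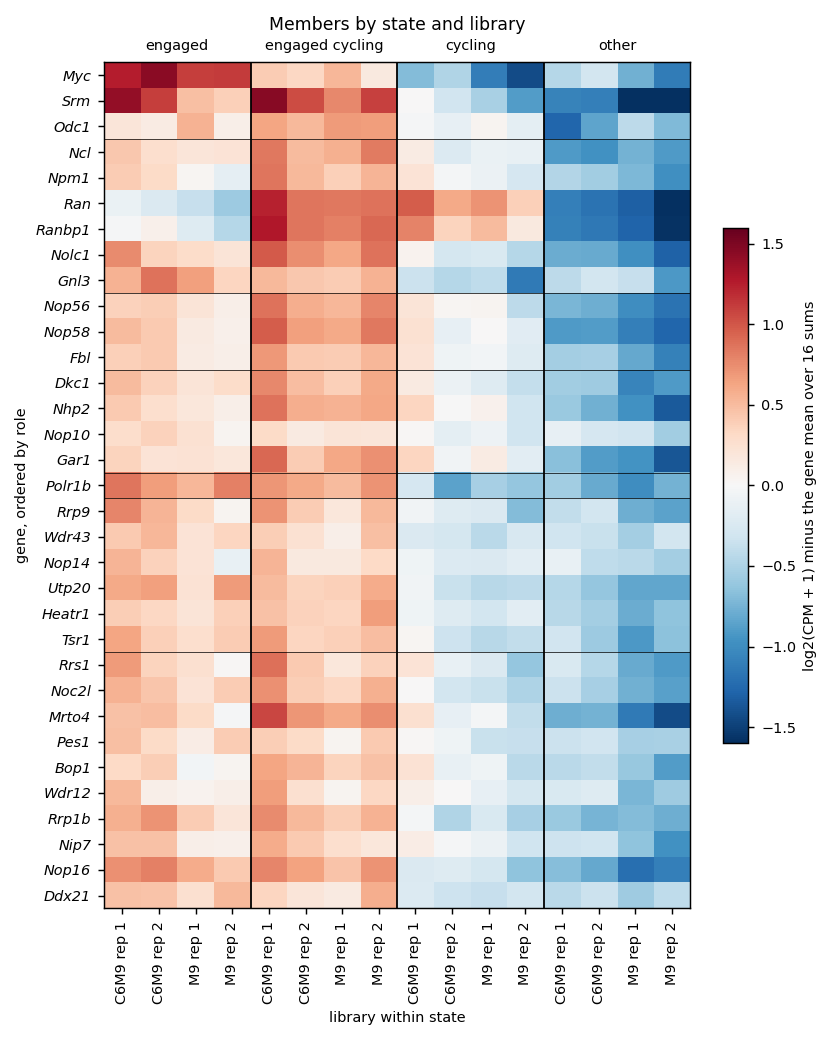
Level of each of the 33 genes (rows, ordered by role) in each state and library (columns), as log2(CPM + 1) minus the mean of the gene over the 16 sums. Engaged and engaged cycling columns are mostly red and other columns mostly blue, and Myc and Gnl3 are lowest in cycling cells while Ran and Ranbp1 are high there.

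Myc led the growth regulators with Srm, which encodes spermidine synthase of the polyamine pathway, and Odc1, which encodes ornithine decarboxylase, the enzyme that starts it. Myc (chromosome 15, 61985391 to 61990374, plus strand, GRCm38) was at 53.0 and 60.4 CPM in engaged cells of C6M9 and 47.6 and 47.9 in those of M9. In other cells it was at 15.4 and 17.4 CPM in C6M9 and 12.2 and 9.43 in M9. The states were far apart in every library, by 1.94 ± 0.11 on the log2 scale (SE, adjusted p = 6.14e-11, edgeR). Srm (chromosome 4, 148591503 to 148594993, plus strand) was at 95.9 and 77.8 CPM in engaged cells of C6M9 and 49.9 and 46.7 in those of M9. Its other cells were at 16.3 and 16.1 CPM in C6M9 and 8.79 and 8.39 in M9. This gave the largest log2 difference of the 33 genes, 2.42 ± 0.12 (adjusted p = 1.02e-11, edgeR). Odc1 (chromosome 12, 17544794 to 17551505, plus strand) was at 117 and 112 CPM in engaged cells of C6M9 and 150.4 and 109 in those of M9, against 41.8 and 56.5 in other cells of C6M9 and 76.0 and 62.1 in those of M9. Its difference of 1.06 ± 0.10 (adjusted p = 3.13e-08, edgeR) was near the median of the 33.

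Polr1b, the second largest subunit of RNA polymerase I, was at 13.0 and 11.2 CPM in engaged cells of C6M9 and 10.1 and 12.5 in those of M9. In other cells it was at 4.22 and 3.42 CPM in C6M9 and 2.86 and 3.54 in M9, a log2 difference of 1.74 ± 0.13 (adjusted p = 1.53e-09, edgeR). All 4 engaged sums were above 10 CPM and all 4 other sums below 5. Nop16, a nucleolar protein of large subunit assembly and a known Myc target, was at 40.6 and 43.0 CPM in engaged cells of C6M9 and 37.0 and 32.7 in those of M9. Its other cells held 14.8 and 13.3 CPM in C6M9 and 9.87 and 10.8 in M9, a log2 difference of 1.68 ± 0.10 (adjusted p = 5.74e-11, edgeR).

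The remaining genes followed in every step of the pathway. The 3 box C/D snoRNP proteins, which serve methylation of ribosomal RNA (Fbl, the methyltransferase fibrillarin, with Nop56 and Nop58), were higher by 1.00 to 1.33 on the log2 scale. The 4 box H/ACA proteins, which serve pseudouridylation (Dkc1, the pseudouridine synthase dyskerin, with Nhp2, Nop10 and Gar1), were higher by 0.54 to 1.22, and Nop10 had the smallest difference of the 33. Among the 6 genes of nucleolar organisation and nuclear transport the range was 0.83 to 1.38, with Nolc1, a chaperone of snoRNPs, at the top and Npm1, nucleophosmin, at the bottom. The 6 genes of small subunit processing spanned 0.64 (Nop14) to 1.26 (Utp20), and 10 of large subunit assembly spanned 0.66 (Wdr12) to 1.68 (Nop16). Wdr12 forms the PeBoW complex with Pes1 and Bop1, and these 3 were among the smaller differences, from 0.66 to 0.77.

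**Figure D2:**
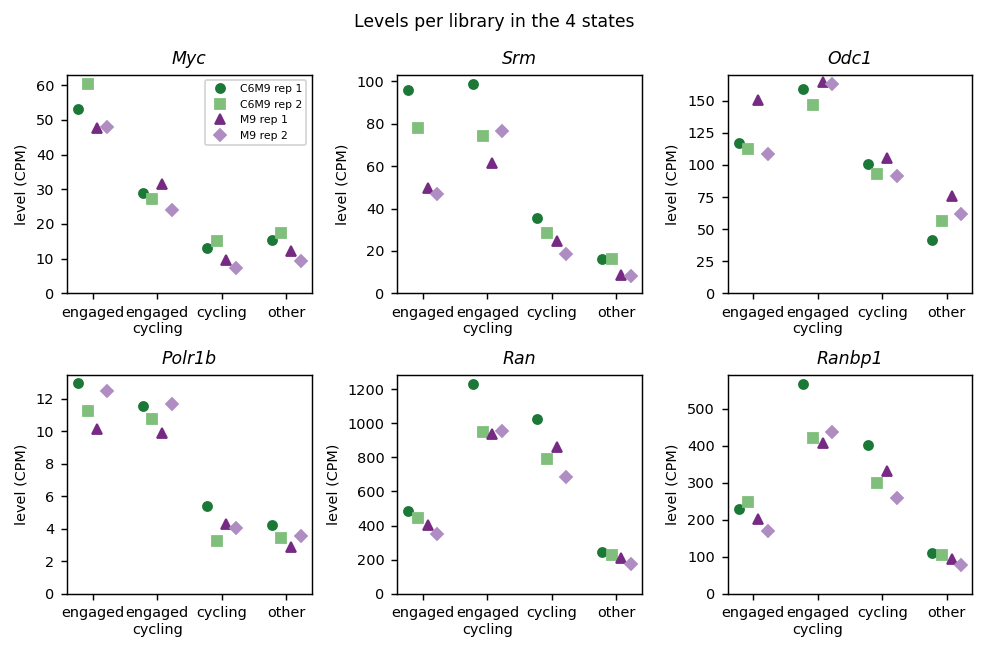
Level (CPM, linear axis from 0) of 6 genes in the 4 states, each marker being 1 library and circles and squares C6M9, triangles and diamonds M9. Myc and Polr1b are high in both engaged states, whereas Ran and Ranbp1 are highest in engaged cycling cells and next in cycling cells.

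Cell depth moved with the states, so the comparison was repeated at like depth. Among cells of 10000 to 20000 UMIs all 33 genes were again higher in engaged cells, with a median log2 difference of 0.89. Of all 10468 genes tested there 923 were higher and 704 lower. With each cell thinned to 5000 UMIs and its state called anew, 32 were higher (median 0.97) and Bop1 was not called (0.49, adjusted p = 0.0654, edgeR). Of all 10906 genes 1134 were then higher and 911 lower. The 33 were called without any 1 of the 4 libraries, as were 3144 to 4071 of all genes. Markers of other cells moved with the engaged state too. The 4 CD4 and regulatory T cell genes summed to 12.7 and 12.6 CPM in engaged cells of C6M9 and 13.5 and 21.1 in those of M9, against 10.3 and 10.8 in other cells of C6M9 and 9.22 and 12.2 in those of M9, and 1 of the 4 was at 0 in engaged cells of C6M9 replicate 1. Of 3 tested Cd4 (1.10) and Cd40lg (1.11) were higher in engaged cells, with Cd4 at 1.73 to 5.59 CPM in them. The 10 B cell genes summed to 372 and 321 CPM in engaged cells of C6M9 and 312 and 308 in those of M9, against 392 and 444 in other cells of C6M9 and 291 and 296 in those of M9, with 1 to 4 of the 10 at 0 in engaged cells. Of 6 tested Cd74 (1.44) was higher and 2 were lower. In C6M9 replicate 2 alone Cd74 lay the other way, at 31.8 CPM in engaged and 52.8 in other cells. The part of these genes in the result was not tested.

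The rise was not even over engaged cells. In thinned engaged cells the median cell gave 40 and 56 of every 10000 UMIs to the 33 genes in C6M9 and 42 and 36 in M9, against 30 and 30 in other cells of C6M9 and 30 and 28 in those of M9. At the 90th percentile the engaged cells stood at 194 and 203 in C6M9 and 132 and 116 in M9, against 50 and 50 in other cells of C6M9 and 50 and 48 in those of M9. The gap between engaged and other cells was thus wider at the 90th percentile than at the median in all 4 libraries. Only 57 and 28 thinned cells were engaged in the C6M9 libraries, against 440 and 81 in M9. States were called on the thinned counts, which left 10 and 5 engaged cycling cells in C6M9 and 34 and 10 in M9. Thinned engaged and other cells can thus include cells that cycle at full depth, and their part in these values was not tested.

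In cells that did not cycle, at full depth, levels were highest at the most engagement UMIs in each library, though not every step was upward. From 0 to 5 or more UMIs of Tnfrsf4, Tnfrsf9 and Egr3, the 32 genes without Myc went from 31.0 to 90.8 and from 30.2 to 99.3 UMIs per 10000 in the C6M9 libraries, and from 29.7 to 68.1 and from 27.0 to 65.2 in M9. Myc went from 15.1 to 86.8 and from 16.3 to 99.4 CPM in C6M9, and from 11.2 to 71.8 and from 11.1 to 78.4 in M9. The climb was uneven in M9 replicate 2, where 44 cells with 2 UMIs stood above 50 cells with 3 to 4 UMIs, at 53.7 and 42.1 per 10000, and Myc at 33.9 and 13.8 CPM. Myc was also lower at 1 UMI than at 0 in C6M9 replicate 1 (12.9 and 15.1 CPM) and in M9 replicate 2 (6.51 and 11.1 CPM). Cells with 5 or more UMIs were also deeper than those with none, at medians of 21991 and 27218 UMIs against 10504 and 14556 in C6M9, and 16224 and 24233 against 10246 and 15889 in M9. With cells thinned to 5000 UMIs, the 32 genes went from 32.7 to 56.7 at 2 UMIs and from 33.4 to 45.9 at 1 UMI in C6M9, the top grades with 20 cells. In M9 they went from 32.4 to 67.5 at 3 to 4 UMIs and 66.5 at 5 or more, and from 31.0 to 61.0 at 3 to 4. Thinned Myc ended highest except in M9 replicate 2, at 32.4 CPM at 2 UMIs and 13.8 at 3 to 4.

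**Figure D3:**
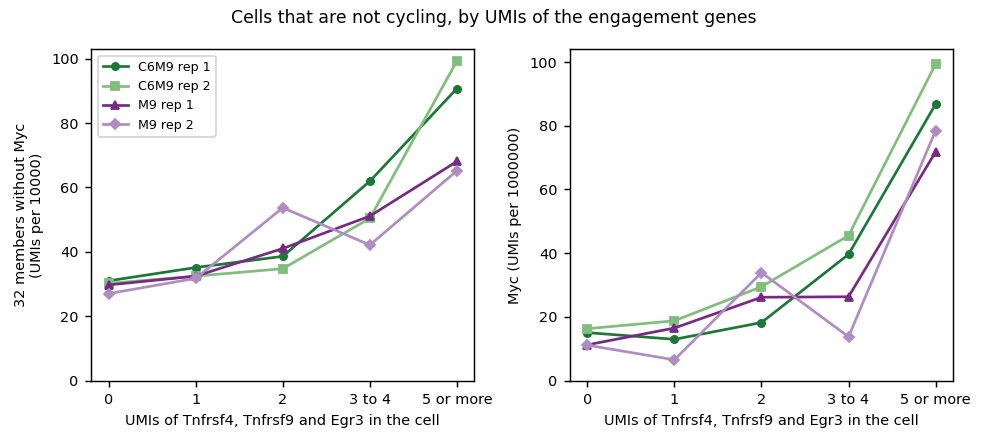
Cells that are not cycling, at full depth, grouped by their UMIs of Tnfrsf4, Tnfrsf9 and Egr3 (horizontal), with the summed share of the 32 genes without Myc (left, UMIs per 10000) and of Myc (right, CPM), 1 line per library. All 4 lines end highest at 5 or more UMIs, and the C6M9 lines end above the M9 lines.

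Cells that showed Myc carried more of the other 32 genes. Among thinned cells that did not cycle, those with 1 Myc UMI gave 42.6 and 43.3 of every 10000 UMIs to the 32 genes in C6M9 and 49.4 and 51.8 in M9. Cells with none gave 33.5 and 34.3 in C6M9 and 35.5 and 33.3 in M9. The order was alike in all 4 libraries and remained when engaged cells were left out, at 40.4 and 38.7 with 1 Myc UMI against 33.1 and 33.6 with none in C6M9, and 38.4 and 44.5 against 32.98 and 31.8 in M9. At this depth most cells without a Myc UMI may still express it, and cells that cycle at full depth can pass as not cycling.

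Cycling cells were compared next with other cells, leaving engaged cells aside. Here 29 of the 33 genes were higher and none lower, against 32.4% of all genes higher and 31.2% lower, 63.7% in all. The median log2 difference was 0.48. Ran, the small GTPase of nuclear transport that also serves the mitotic spindle, was at 1023 and 793 CPM in cycling cells of C6M9 and 861 and 684 in those of M9. Other cells held 244 and 229 CPM in C6M9 and 212 and 171.5 in M9, a log2 difference of 1.97 ± 0.06 (adjusted p = 9.41e-18, edgeR). Its partner Ranbp1 was at 403 and 298 CPM in cycling cells of C6M9 and 332 and 259 in those of M9, against 109 and 105 in other cells of C6M9 and 95.1 and 77.0 in those of M9 (1.74 ± 0.08). For both genes every cycling sum lay above every engaged sum of any library, with Ran at 485 and 446.5 CPM in engaged cells of C6M9 and 405 and 349 in those of M9.

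Srm (1.13 ± 0.12) and Gar1 (1.05 ± 0.08) followed. Srm stood at 35.5 and 28.4 CPM in cycling cells of C6M9 and 24.5 and 18.6 in those of M9. Gar1 stood at 79.0 and 59.5 CPM in cycling cells of C6M9 and 67.9 and 54.8 in those of M9, against 38.5 and 32.7 in other cells of C6M9 and 31.4 and 23.4 in those of M9. Myc was not called, at -0.25 ± 0.12 (adjusted p = 0.0811, edgeR). It was at 12.9 and 15.1 CPM in cycling cells of C6M9 and 9.50 and 7.35 in those of M9, in each library below the other cells. Gnl3, a nucleolar GTPase known as nucleostemin (-0.06), Wdr43 (0.08) and Polr1b (0.29) were not called either.

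This comparison depended on cell depth. Cycling cells had medians of 28820 and 36310 UMIs in C6M9 and 22454 and 27616 in M9. Among cells of 10000 to 20000 UMIs only 4 of the 33 genes were called, near the share of all genes (1363 of 10468, 900 higher and 463 lower). The median of the 33 was -0.06. Of the 33 Ran alone was called higher there (1.03), while Myc (-0.66), Gnl3 (-0.38) and Npm1 (-0.24) were called lower. Srm, at -0.87, and Gar1, at -0.094, turned sign there and were not called. With cells thinned to 5000 UMIs, which keeps the deep cells, 26 of the 33 were higher and Myc was lower (-0.40, adjusted p = 0.0209, edgeR). Of all 10906 genes tested there 3026 were higher and 2864 lower.

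**Figure D4:**
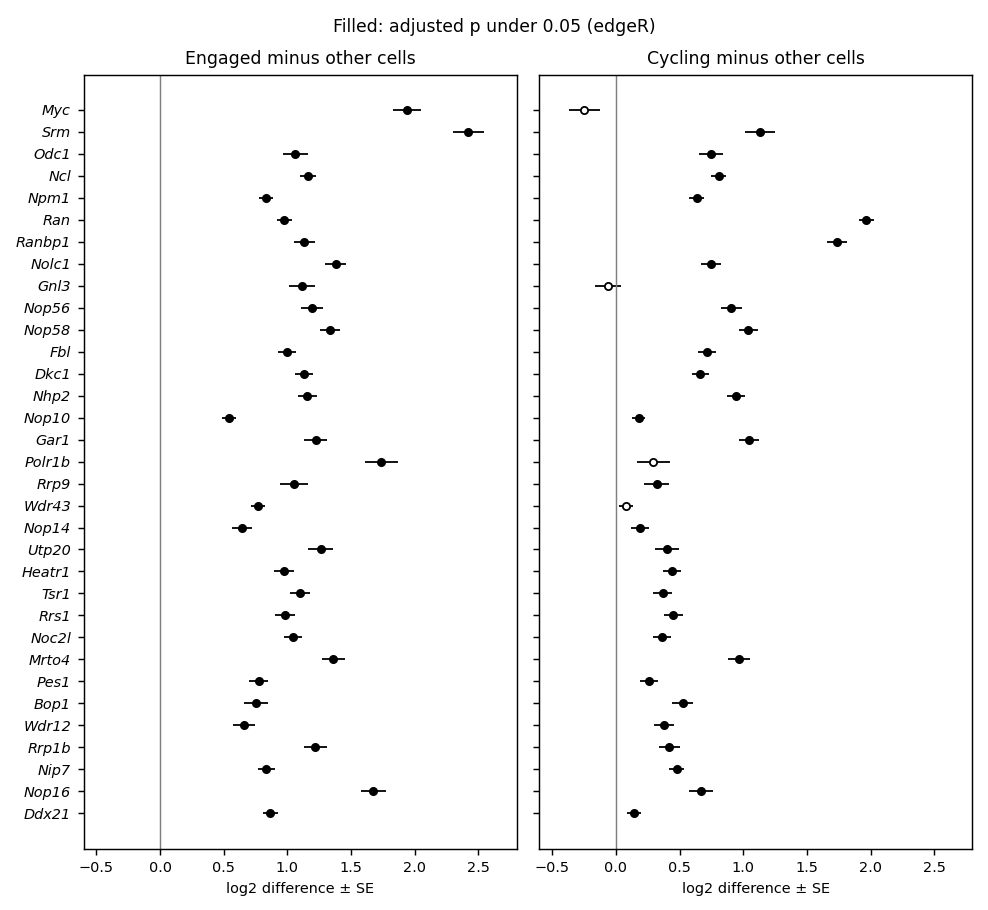
Log2 difference with its SE for each of the 33 genes, engaged minus other cells on the left and cycling minus other cells on the right, filled where the adjusted p is under 0.05. All 33 points lie right of 0 on the left, and Myc, Gnl3, Polr1b and Wdr43 are open on the right.

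Engaged cycling cells were then set against cycling cells that were not engaged. All 33 genes were higher, against 14.4% of all genes higher and 12.7% lower, 27.1% in all, with a median log2 difference of 0.69. Srm was at 98.7 and 74.3 CPM in engaged cycling cells of C6M9 and 61.2 and 76.7 in those of M9, 1.53 ± 0.10 above cycling cells on the log2 scale. Polr1b was at 11.6 and 10.8 CPM in engaged cycling cells of C6M9 and 9.92 and 11.7 in those of M9, against 5.38 and 3.24 in cycling cells of C6M9 and 4.31 and 4.02 in those of M9 (1.36 ± 0.12). Myc was at 28.9 and 27.3 CPM in engaged cycling cells of C6M9 and 31.5 and 24.1 in those of M9, a difference of 1.29 ± 0.12. For these 3 genes the states did not overlap, as for 30 of the 33 in all, Gnl3 and Odc1 included. The like share of all genes was not counted. Gnl3 was at 124 and 116 CPM in engaged cycling cells of C6M9 and 114 and 127 in those of M9, against 67.6 and 62.1 in cycling cells of C6M9 and 64.4 and 38.6 in those of M9 (1.04 ± 0.10). Odc1 was at 159 and 146 CPM in engaged cycling cells of C6M9 and 164 and 163 in those of M9, 0.69 ± 0.09 above cycling cells.

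Engaged cycling cells were the deepest, at medians of 55410 and 72088 UMIs in C6M9 and 35242 and 46351 in M9. Among cells of 10000 to 20000 UMIs 8 of the 33 genes were called, all higher, with a median of 0.79. Of all 10468 genes tested there 88 were higher and 36 lower. Thinned to 5000 UMIs, M9 replicate 1 alone kept 20 engaged cycling cells or more and none of the 33 was called. Over the mean of the 4 libraries 25 genes were highest in engaged cycling cells, and 8 were highest in engaged cells that did not cycle (Myc, Gnl3, Nop10, Polr1b, Wdr43, Utp20, Pes1 and Ddx21). Myc was higher in engaged cells than in engaged cycling cells in all 4 libraries.

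The design sets low against high affinity GP33, and this was asked within each state. In other cells 5 of the 33 genes were higher in C6M9 and none was lower (edgeR), against 1.9% of all genes higher and 3.2% lower, 5.1% in all. These 5 were Srm, Rrs1, Rrp9, Wdr12 and Dkc1. The median log2 difference of the 33 was 0.30, against -0.0136 for all genes. Both C6M9 libraries lay above both M9 libraries for 26 of the 33 genes and below for 2, against 28% of all genes above and 25.3% below.

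Srm differed most. Other cells averaged 16.2 ± 0.143 CPM in C6M9 and 8.59 ± 0.284 in M9 (SD, n = 2 each), a log2 difference of 0.89 ± 0.13 (adjusted p = 0.00321, edgeR). Rrs1, a regulator of large subunit assembly, was at 25.1 and 21.5 CPM in other cells of C6M9 and 16.6 and 15.6 in those of M9 (0.51 ± 0.12, adjusted p = 0.0403, edgeR). Rrp9, a protein of the U3 snoRNP that serves the small subunit, was at 18.3 and 19.6 CPM in C6M9 and 13.7 and 13.0 in M9 (0.48 ± 0.12, adjusted p = 0.0447, edgeR). In these 3 genes the groups did not overlap. Wdr12 was at 36.5 and 37.4 CPM in C6M9 and 25.7 and 28.8 in M9 (0.43 ± 0.11, adjusted p = 0.0490, edgeR). Dkc1 was at 58.7 and 58.2 CPM in C6M9 and 41.2 and 46.0 in M9 (0.41 ± 0.10, adjusted p = 0.0462, edgeR). Myc (0.55 ± 0.15, adjusted p = 0.0657, edgeR) and Odc1 (-0.52 ± 0.15, adjusted p = 0.0793, edgeR) were not called, although the groups did not overlap and Odc1 pointed the other way. Myc was called without M9 replicate 1 (0.81) and without C6M9 replicate 1 (0.65), and Odc1 without M9 replicate 2 (-0.65) and without C6M9 replicate 2 (-0.75).

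These calls were fragile. The count was 1 with DESeq2 and 0 in cells of 10000 to 20000 UMIs, where the median of the 33 was 0.32 and Srm stood at 0.82 (adjusted p = 0.0544, edgeR). It was 2 with library totals in place of TMM scaling, Srm higher and Odc1 lower, while that scaling moved the median of all genes to -0.12. The median of the 33 was 0.44 without M9 replicate 1, 0.22 without M9 replicate 2, and 0.27 and 0.36 without C6M9 replicates 1 and 2. Other cells also differed in makeup, since those with at least 3 UMIs of Il7r and S1pr1, genes of resting and memory T cells, were 48.2 and 46.5% of T cells in C6M9 and 23.2 and 33.9% in M9. Among these the 33 genes took 31.3 and 30.4 of every 10000 UMIs in C6M9 and 27.9 and 26.8 in M9, and among the remaining other cells 33.8 and 33.5 in C6M9 and 32.5 and 30.2 in M9. The 10 B cell genes summed to 392 and 444 CPM in other cells of C6M9 and 291 and 296 in those of M9, with 2 of 6 tested higher in C6M9 and 1 to 3 of the 10 at 0 in each library. The 12 myeloid genes summed to 31.8 and 28.6 CPM in other cells of C6M9, with 3 of the 12 at 0 in each library, and 19.9 and 13.7 in those of M9, with 7 and 8 at 0. Of 3 myeloid genes tested Lyz2, at 421 and 251 UMIs in C6M9 and 10 and 0 in M9, was higher in C6M9, and Cd68 was lower (-0.80). Of 13 stress and immediate early genes tested Hspa1a alone was called, at 38.0 and 58.6 CPM in C6M9 and 23.1 and 31.3 in M9. The part of these genes in the result was not tested.

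In engaged cells Srm alone was called, against 2.7% of all genes higher in C6M9 and 3.98% lower, 6.68% in all. It averaged 86.8 ± 12.9 CPM in engaged cells of C6M9 and 48.3 ± 2.29 in those of M9 (SD, n = 2 each), a log2 difference of 0.80 ± 0.13 (adjusted p = 0.00125, edgeR). Both C6M9 libraries were above both M9 libraries. The median of the 33 was 0.21 and for 23 of them both C6M9 libraries lay above both M9 libraries and for none below, against 28.6% of all genes above and 22% below. Myc (0.21 ± 0.13) and Odc1 (-0.23 ± 0.14) were not called, and Odc1 stood at 0.04 without M9 replicate 1 and at -0.42, called, without M9 replicate 2. With engaged cells set at 3 or more UMIs 8 genes were higher (Srm, Npm1, Nop58, Ranbp1, Rrp9, Nolc1, Ran and Fbl). Of all 9439 genes tested there 262 were higher and 394 lower. Thinning the cells gave 0 of 31 tested, against 24 of all 4442 genes. The median of the 33 was 0.25 without M9 replicate 1, 0.225 without M9 replicate 2, and 0.21 and 0.23 without C6M9 replicates 1 and 2. Engaged cells of the groups were not alike in the genes that define them, which summed to 184 and 163 CPM in C6M9 and 348 and 273 in M9.

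In cycling cells none of the 33 was called by edgeR or DESeq2, against 0.433% of all genes by edgeR (0.0606% higher in C6M9 and 0.372% lower). An unadjusted p under 0.05 (edgeR) was found for 5 of the 33 and for 925 of all 11544 genes. Myc was at 14.0 ± 1.55 CPM in cycling cells of C6M9 and 8.43 ± 1.52 in those of M9 (SD, n = 2 each), with a log2 difference of 0.68 ± 0.18 (adjusted p = 0.213, edgeR). Srm stood at 0.53 ± 0.16 and Odc1 at -0.05 ± 0.12. Rrs1 was at 35.0 and 27.4 CPM in C6M9 and 25.3 and 19.1 in M9 (0.45 ± 0.16), and Pes1 at 30.5 and 28.5 CPM in C6M9 and 23.2 and 22.9 in M9 (0.33 ± 0.13). Without M9 replicate 1 Gnl3 was called (0.73) and Odc1 stood at 0.07, and without C6M9 replicate 1 Myc was called (0.82).

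**Figure D5:**
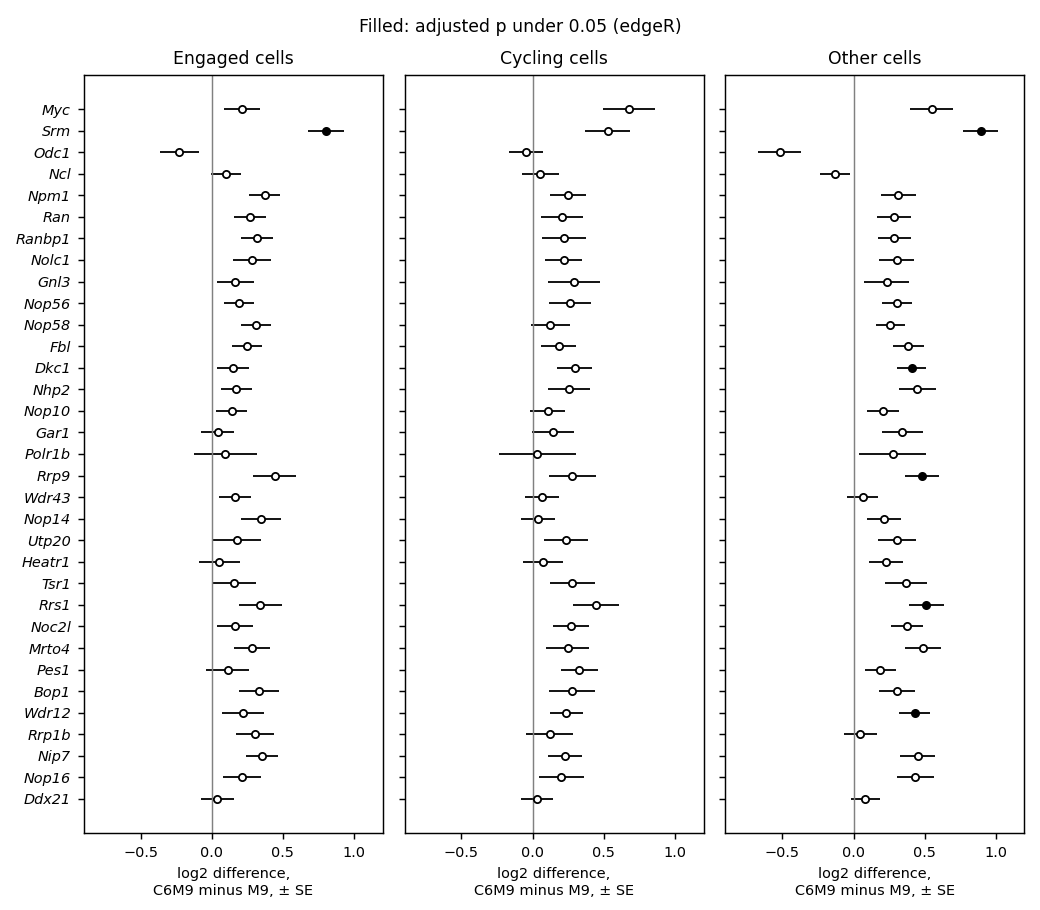
Log2 difference with its SE for each of the 33 genes, C6M9 minus M9, in engaged, cycling and other cells, filled where the adjusted p is under 0.05. Most points lie right of 0, Odc1 lies left of it in each panel, and 1, 0 and 5 points are filled.

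Over all T cells none of the 33 was called by edgeR, against 5.63% of all genes (1.5% higher in C6M9 and 4.13% lower). An unadjusted p under 0.05 (edgeR) was found for 11 of the 33 and for 3174 of all 13610 genes. DESeq2 called 4 (Srm, Ran, Ranbp1 and Rrs1, all higher in C6M9), against 457 of all genes higher and 560 lower. The median log2 difference was 0.14. Myc was at 21.2 ± 2.29 CPM in C6M9 and 21.3 ± 3.33 in M9 (SD, n = 2 each), with overlapping libraries and a log2 difference of -0.01 ± 0.13, which was 0.20 when M9 replicate 1 was left out and -0.16 when M9 replicate 2 was. Srm was at 46.5 and 42.4 CPM in C6M9 and 32.5 and 36.0 in M9 (0.38 ± 0.09, adjusted p = 0.0587, edgeR). Rrs1 was at 36.6 and 30.3 CPM in C6M9 and 26.6 and 25.2 in M9 (0.37 ± 0.11), Ran at 752 and 637 CPM in C6M9 and 546 and 536 in M9 (0.36 ± 0.11), and Ranbp1 at 322 and 271 CPM in C6M9 and 236 and 235 in M9 (0.34 ± 0.10). In these 4 genes both C6M9 libraries were higher, and Odc1 was at -0.21 ± 0.09 (96.1 ± 4.43 CPM in C6M9 and 111.5 ± 9.85 in M9). The median of the 33 was 0.16 without M9 replicate 1, 0.17 without M9 replicate 2, and 0.10 and 0.21 without C6M9 replicates 1 and 2.

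The mix of states differed between the groups, and with it the place where UMIs of these genes lay. Engaged cells held 15.1 and 18.8% of Myc UMIs in C6M9 and 41.1 and 37.3% in M9. Cycling cells held 22.5 and 19.8% in C6M9 and 7.63 and 8.45% in M9. For the 33 genes together, cycling cells held 36.2 and 28.6% of UMIs in C6M9 and 19.9 and 19.8% in M9, and engaged cells 6.39 and 8.48% in C6M9 and 22.9 and 15.4% in M9. UMIs of the 33 genes per cell also differed, untested, at 170.0 ± 19.4 per engaged cell in C6M9 and 120.4 ± 30.4 in M9. Cycling cells held 206 ± 4.73 each in C6M9 and 145.5 ± 17.4 in M9 (SD, n = 2 each). Such counts rise with cell depth, and median depth in both states was higher in C6M9 at each replicate number. Of every 10000 UMIs the 33 genes took 65.15 ± 2.59 in engaged cells of C6M9 and 57.40 ± 0.386 in those of M9. In cycling cells they took 54.49 ± 6.78 in C6M9 and 50.02 ± 2.95 in M9. The part of depth in the counts per cell was not tested.

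Whether the difference between the groups itself varied between engaged and other cells was tested with an interaction term. None of the 33 was called by edgeR or DESeq2, against 0.176% of all genes by edgeR (0.0837% upward and 0.092% downward). An unadjusted p under 0.05 (edgeR) was found for 1 of the 33 and for 941 of all 11954 genes. The median of the 33 was -0.06. Odc1 (0.31 ± 0.16), Myc (-0.30 ± 0.16), Rrp1b (0.28 ± 0.18), Gar1 (-0.26 ± 0.16) and Srm (-0.07 ± 0.19) each had an adjusted p of 0.671 or more. This does not show that the groups differ alike in both states.

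Other genes of the pathway were then counted in engaged against other cells, where 20.3% of all genes were higher and 17.4% lower. Of 52 further genes listed under small subunit processing 44 were higher and 1 lower, with a median log2 difference of 0.57. Pdcd11 (0.84), Rcl1 (1.16) and Utp18 (0.83) had the smallest p-values. Nop53 (-0.25), whose role may lie outside the small subunit, was the listed gene that was lower. Of 51 further genes of large subunit assembly 45 were higher and 1 lower (median 0.65), led by Ppan (1.51), the AAA ATPase gene Mdn1 (1.16) and the methyltransferase gene Nop2 (1.48). All but 1 of 11 genes of snoRNP assembly were higher, Ruvbl1 (1.00) and Ruvbl2 (0.97) among them. RNA polymerase I and III was more mixed, with 13 of 25 higher and 2 lower: Polr1a (1.03), Polr1c (0.66) and Polr3d (0.78) were higher, and Maf1 (-0.33), a repressor of RNA polymerase III, was lower.

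Among pathways fed by or feeding growth, 19 of 20 nucleotide synthesis genes were higher, led by Impdh2 (1.02), Nme1 (0.91) and Ctps (1.64). So were 19 of 20 translation factors (Eif4a1, 0.74) and 13 of 17 nuclear transport genes (Ipo5, 1.14 and Rcc1, 1.39). Of 12 polyamine genes tested 6 were higher and 1 lower, with Eif5a (1.16), whose product carries the spermidine-derived residue hypusine, higher and Sat1 (-0.30), a catabolic enzyme gene, lower. Of 17 tested genes of the MYC and MAX network 2 were higher (Ruvbl1 and Mycn) and 1 lower, Mxd1 (-0.27), an antagonist of Myc. Of 22 genes of growth restraint 16 were lower and 1 higher, with Klf2 (-1.19), Txnip (-0.83) and Cdkn1b (-0.69) leading. Cell cycle genes moved less evenly, with 23 of 41 S phase genes higher and 1 lower, and 5 of 48 G2 and M phase genes higher and 11 lower. Of 13 tested immediate early and stress genes 2 were higher and 4 lower.

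In cycling against other cells 32.4% of all genes were higher and 31.2% lower, 63.7% in all. The same lists gave 42 higher and 2 lower of 52 for the small subunit, and 27 higher and 5 lower of 51 for the large subunit. All 11 snoRNP assembly genes were higher, as were 18 of 20 nucleotide synthesis genes, 16 of 20 translation factors and 16 of 17 nuclear transport genes, led by Rcc1 (2.47), the exchange factor of Ran. Of 25 RNA polymerase I and III genes 11 were higher and 5 lower, and of 12 polyamine genes 8 were higher and 3 lower. Of 17 MYC and MAX network genes 5 were higher, Mxd3 (6.54) among them, and 9 lower. Growth restraint genes were again mostly lower, at 18 of 22 with 2 higher, led by Btg1 (-1.26).

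Between the groups few of these genes were called. In other cells Bysl (0.73) and Nob1 (0.50) of the small subunit, Rrp15 (0.62) of the large subunit, Atic (0.49) and Nme2 (0.53) of nucleotide synthesis and the translation factor gene Eef1e1 (0.51) were higher in C6M9. Of the 22 growth restraint genes Tsc22d3 (1.17), Klf2 (0.48) and Txnip (0.47) were higher there and Rbl2 (-0.50) was lower. In engaged cells Emg1 (0.41) of the small subunit, Lyar (0.59) of the large subunit, Nme2 (0.46) and Gart (0.47) of nucleotide synthesis were higher in C6M9, and Sat1 (-0.51) was lower. Growth restraint genes gave 5 higher there, Tsc22d3 (1.28) and Klf2 (1.03) among them, and Rbl2 (-0.64) lower. Over all T cells Mdn1 (-0.42) and Mxd1 (-0.52) were lower in C6M9 and Mxd3 (0.44) was higher, and of the growth restraint genes 3 were higher and Rbl2 (-0.49) lower.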

How the data were processed

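The deposited values are unnormalized UMI counts, 1 matrix for each library, and Cell Ranger 6.0.0 and mm10 stand in the submitters' processing notes. The annotation release was not given in the sources used here. Barcodes with 500 genes and 1000 UMIs or more, of which mitochondrial UMIs made up 10% or less, were kept (10324). Scrublet (scanpy 1.11.5, Python 3.11.15) marked only 10 cells by its automatic threshold, so its highest scores were left out at 0.8% per 1000 barcodes (277 cells). Cells with 5 or more UMIs of a short list of B cell genes were left out as B cells (252). Of 11106 distinct barcodes 7 were listed in more than 1 library.

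For each library the counts were added up for all T cells and for every state, then tested with edgeR 4.0.16 (R 4.3.3; TMM, filterByExpr, quasi-likelihood test, two-sided). A gene was called at a Benjamini-Hochberg adjusted p under 0.05, the adjustment covering every gene tested. States were compared with library and state as terms over 16 sums, groups by 2 against 2 sums, each with its own scaling. Levels in states are CPM after TMM over the 16 sums. A sum of under 20 cells was left out. On data simulated from the means and depths of each comparison, edgeR recovered 64% of 1.5-fold and 96% of 2-fold changes in other cells, C6M9 against M9. There 11740 genes were tested, with 4.19% false calls. These shares were 50% and 91% in engaged cells, 39% and 96% in cycling cells, 59% and 97% over all T cells and 51% and 88% in the interaction. In engaged against other cells (11780 genes) they were 97% and 100%, with 5.29% false calls. No changes were planted in the genes of lowest mean level. Each gene was given the spread typical of its level, and libraries differed in depth alone. Recovery can thus be smaller for low or variable genes.

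Every library was printed for Myc, Srm, Odc1 and, in each comparison, the 4 genes of largest log2 difference among those called (among all tested, if none), and of related lists up to 3 genes of smallest p; other genes are named where counts are small or after their values were seen. The 33 genes and all lists were chosen with earlier results of these data known. In the files UMIs of processed pseudogenes of Npm1, Ran and Ncl could be exchanged with their parents, and no same-strand gene of the files overlaps the 33 (GENCODE release of GRCm38). Empty droplets were not analysed here, so free RNA was not measured.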

Additional observations from a re-analysis of the deposited data

Results flagged for a closer look

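Klf2, a transcription factor gene of quiescent T cells, differed between the groups more in engaged than in other cells. In engaged cells C6M9 minus M9 was 1.03 ± 0.12 on the log2 scale (adjusted p = 6.77e-05, edgeR), and in other cells 0.48 ± 0.10 (adjusted p = 0.0261, edgeR). The interaction between group and state was 0.56 ± 0.08 (adjusted p = 0.00485, edgeR), and it was the only one of the 22 growth restraint genes called in it. None of the 33 ribosome biogenesis and Myc growth genes was called in that test. With 2 libraries per group no library could be tested as standing apart from its group.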

How the results depend on the processing

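All 33 genes stayed higher in engaged than in other cells under 10 of 11 alternatives, and 32 with thinned cells, with medians from 0.89 to 1.22. In cycling against other cells 26 to 30 were called under every alternative except cells of 10000 to 20000 UMIs, where 4 were. In engaged cycling against cycling cells the count of 33 became 8 in cells of 10000 to 20000 UMIs and 0 in thinned cells. The count of 0 over all T cells became 1 with thinned cells, 4 with DESeq2 and 5 with no filter on low counts. In engaged cells the count of 1 became 0 with thinned cells, 8 with engaged cells set at 3 or more UMIs, 2 with DESeq2 and 2 with no filter. In cycling cells 0 became 2 with no filter. In other cells 5 became 0 at 10000 to 20000 UMIs, 3 with thinned cells (Odc1 lower), 2 with the 3 UMI rule, 1 with DESeq2, 2 with library totals and 13 with no filter. The interaction gave 1 with thinned cells and 1 with the 3 UMI rule. The cause of these shifts was not tested, and thinning, narrower depth and fewer libraries leave fewer UMIs to test. Leaving out 1 library at a time, with the lone library of its group taken to vary like the other group, gave 0 to 3 over all T cells, 0 to 8 in engaged, 0 to 1 in cycling and 2 to 21 in other cells.

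Deviations of like-numbered libraries correlated at 0.0075 across genes. A lone correlation cannot decide whether replicate numbers pair the libraries, and replicate 2 was deeper in both groups. With a replicate block 11 genes were called in other cells (10 higher, Odc1 lower), 0 in cycling cells, 1 in engaged cells and 0 over all T cells, and 129 of all genes against 50 in cycling cells and 953 against 607 in other cells.

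Signs turned as follows. Myc over all T cells turned to 0.056 at 10000 to 20000 UMIs, 0.15 with thinned cells and 0.0055 with DESeq2, and ranged from -0.16 to 0.20 over libraries left out. In cycling cells, C6M9 minus M9, Srm turned to -0.14 at 10000 to 20000 UMIs, and Odc1 ranged from -0.14 to 0.073 over libraries left out, as it did from -0.42 to 0.039 in engaged cells. Between cycling and other cells of 10000 to 20000 UMIs Srm, at 1.13 in all cells, turned to -0.87 and Gar1, at 1.05, to -0.094. In the interaction, at 10000 to 20000 UMIs, with thinned cells and with the 3 UMI rule, Myc turned to 0.24, 0.083 and 0.025 and Srm to 0.60, 0.26 and 0.24. Gar1 turned to 0.050 with the 3 UMI rule, and Srm ranged from -0.22 to 0.043 over libraries left out. Polr1b in engaged cycling against cycling cells, at 1.36 in all cells, turned to -6.93 with thinned cells, where 1 library was left with both states.

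Counts over all genes moved further. Against 766 over all T cells there were 76 at 10000 to 20000 UMIs, 1910 with no filter and 205 to 1566 over libraries left out. Against 661 in engaged cells there were 140, 24 with thinned cells, 342 with DESeq2 and 55 to 1065. Against 50 in cycling cells there were 0, 28 with thinned cells, 257 with no filter and 75 to 145, and against 607 in other cells 144, 1261 with no filter and 367 to 1935. Engaged minus other gave 4507, against 1627 at 10000 to 20000 UMIs and 2045 with thinned cells, cycling minus other 7609 against 1363, and engaged cycling minus cycling 3238 against 124 and 24. The interaction gave 21, against 2 at 10000 to 20000 UMIs, 45 with the 3 UMI rule, 33 with DESeq2, 144 with no filter and 4 to 17 over libraries left out.

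With 2 libraries per group, small differences between the groups cannot be told from spread between libraries. Engaged cells of C6M9 were few (151 and 131), state rules read sparse UMIs, and deeper cells pass them more easily.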
